A study of Mus musculus with 8 samples.

Results

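The TAM receptors Mertk, Axl and Tyro3, the bridging proteins Gas6, Pros1 and Mfge8, and the engulfment genes Elmo1, Dock1, Megf10 and Gulp1 were followed in liver macrophages of mice with acetaminophen injury. These 10 genes were chosen by name, out of 22180 genes with an array row that carries exactly 1 gene symbol, and each had 1 such row. The RNA came from hepatic macrophages of 8-week-old male FVB/N mice, and 8 Affymetrix arrays were made from it. The control group, rTF (4 arrays), received 25 µg of recombinant transferrin, a plasma iron carrier, and the other group, rCPS1 (4 arrays), received 50 µg of recombinant CPS1, a mitochondrial urea cycle enzyme of hepatocytes. All mice then received acetaminophen (350 mg/kg) into the peritoneum, 12 h after the protein had been given by tail vein, so no array shows an uninjured liver and the protein and its amount differ together. The comparison asks whether the genes by which macrophages take up dying cells differ after rCPS1. Every sample title reads Mouse1, so the labels do not settle whether replicates are separate mice. Every p-value therefore rests on the spread among these arrays alone, part or all of which may be technical.

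Dying cells expose the lipid phosphatidylserine on their surface. Gas6 and protein S (Pros1), made active by vitamin K-dependent carboxylation, bind that lipid at one end and a TAM receptor tyrosine kinase at the other, and Mfge8 bridges the same lipid to integrins. Receptor signals then reach ELMO1 and DOCK1, which together switch on the GTPase RAC1 and drive the membrane around the corpse, while MEGF10 and its adapter GULP1 belong to a parallel engulfment route known from the worm genes ced-1 and ced-6. In liver, MERTK-bearing macrophages are known for clearing dead cells and for limiting inflammation.

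None of the 10 genes passed the limma test of a difference between the groups. In the limma fit over all 22180 genes, 0 of 10 passed at an adjusted p under 0.05 (against 0% of all genes), 0 had an unadjusted p under 0.05 (against 4.67% of all genes), and in 0 did the groups fail to overlap (against 2.92% of all genes). With rCPS1, 8 members lay higher and 2 lower, while 45.6% of all genes lay higher. Their median log2 difference was 0.057, and that of all genes was -0.018. Adjusted p-values of the members ran from 0.98 to 0.99, and the smallest over all genes was 0.86.

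The arrays were checked before single genes were read. Array medians over all rows lay between 3.55 and 3.68 (log2). Replicate 2 of rTF stood apart on the first principal component over genes (22.9% of the variance), at 42.6 where the remaining arrays ran from -23.1 to 7.04, so differences without that array are given here: 0.083 for Mertk, 0.062 for Axl, -0.30 for Tyro3, 0.21 for Gas6, 0.056 for Pros1, 0.096 for Mfge8, -0.052 for Elmo1, 0.061 for Dock1, 0.13 for Megf10 and -0.021 for Gulp1, none past the test. All 13 measured Kupffer cell markers (resident liver macrophages) lay above the median level of all genes, 4.19, and so did 10 of 10 markers of sinusoidal endothelium, the liver's capillary lining, led by Clec4g (12.47 ± 0.09 with rTF, SD, n = 4) and Fcgr2b (12.10 ± 0.09). Hepatocyte markers did so in 9 of 10 cases and neutrophil markers in 7 of 10. The preparation thus carried transcripts of more than macrophages, and in bulk RNA fewer cells of a type cannot be told apart from less RNA per cell. The monocyte marker mean was 8.75 ± 0.19 with rTF and 8.06 ± 0.11 with rCPS1, with every rCPS1 array below every rTF array. The neutrophil mean was 6.31 ± 0.40 and 5.27 ± 0.39, also without overlap. The T and NK cell mean was 6.50 ± 0.56 with rTF and 6.02 ± 0.24 with rCPS1, and the groups overlapped. That mean stood at 7.30 in rTF replicate 2, against 5.76 to 6.36 in the remaining arrays. The Kupffer cell mean (8.93 ± 0.29 and 9.07 ± 0.32) and the endothelial mean (11.37 ± 0.14 and 11.39 ± 0.072) overlapped between the groups. The part of these cell markers in any member's group difference was not tested beyond the 2 covariate fits given with Axl and the bridging proteins.

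Mertk, the main macrophage receptor of the family, was the steadiest of the 10 genes. Its log2 level was 9.30, 9.27, 9.39 and 9.32 in rTF replicates 1 to 4 and 9.43, 9.47, 9.40 and 9.38 in rCPS1 replicates 1 to 4. The groups touched at a single place, where rCPS1 replicate 4 fell just below rTF replicate 3, and the whole spread over 8 arrays was 0.19. The log2 difference was 0.098 ± 0.095 (SE), a fold of 1.07 with a 95% interval of 0.92 to 1.24 (limma adjusted p = 0.98). The SD of its own arrays was 0.051 with rTF and 0.038 with rCPS1. Limma draws each gene's variance toward that of all genes, which widened this SE and interval. Taken alone, a two-sided exact permutation test over the 70 assignments of arrays gave p = 0.0571, where the smallest possible is 0.0286, and 5.69% of all genes had a p that low or lower. Leaving out rTF replicate 3 or rCPS1 replicate 4, the arrays of that single place, necessarily ended the overlap. In those settings the groups did not overlap in 5.94% and 5.39% of all genes. For those genes the array was not picked by their own values, so the shares are no like-for-like background. The difference of Mertk stayed between 0.081 and 0.12 whichever array was left out.

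Axl, a receptor with high affinity for Gas6 that resident and inflamed macrophages carry, varied far more from array to array. Levels were 9.29, 8.92, 8.85 and 9.22 with rTF and 9.27, 8.93, 9.59 and 8.94 with rCPS1. Both groups held arrays near 8.9 and arrays above 9.2, and they overlapped almost fully. No array lay between 8.94 and 9.22, a gap slightly smaller than that from 9.29 to 9.59 among the high arrays. The log2 difference was 0.11 ± 0.17 (SE), a fold of 1.08 with a 95% interval of 0.83 to 1.42 (limma adjusted p = 0.98). Without rCPS1 replicate 3, the highest array, it was -0.024.

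The array-to-array swings of Axl ran with those of Kupffer cell genes. The mean of the 13 Kupffer cell markers was 9.28, 8.75, 8.65 and 9.04 in rTF replicates 1 to 4 and 9.28, 8.77, 9.41 and 8.84 in rCPS1 replicates 1 to 4. Arrays high in one were high in the other, in both groups. Across the 8 arrays Axl and this mean gave Pearson's r = 0.96 (two-sided exact permutation p = 4.96e-05, adjusted p = 0.0045 over 90 member and marker list pairs) and Spearman's coefficient = 0.98 (exact permutation p = 0.0004, adjusted p = 0.036). Without rCPS1 replicates 1 and 3, the arrays farthest from the median of the marker mean, r was 0.97, and with group means removed it was 0.96. Mertk gave r = -0.03 with the same markers (Spearman's coefficient 0.21, exact permutation p = 0.94 and 0.62). That r was not steady, being -0.49 without rCPS1 replicates 1 and 3 and -0.40 with group means removed. With the Kupffer cell mean as a covariate, an alternative chosen after seeing the data, the group difference of Axl was -0.012 ± 0.11 (SE). If the step from 8.94 to 9.22 is taken to divide the arrays, the 4 on either side are too few for a correlation within each. The points share their libraries, and no label gives a batch to divide them by.

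**Figure D1:**
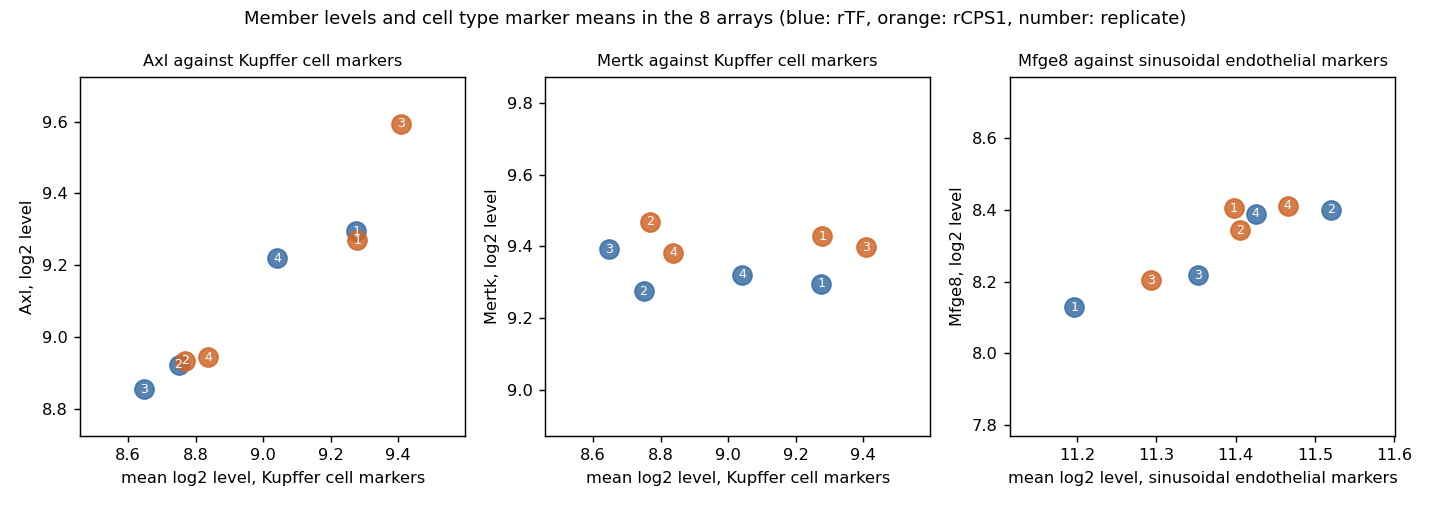
Each panel plots a gene's log2 level (vertical axis, 1 log2 unit tall in each panel) against the mean log2 level of a marker list (horizontal axis) in the 8 arrays, blue for rTF and orange for rCPS1, with the replicate number in the point. Axl climbs with the Kupffer cell markers from 8.85 to 9.59, Mertk stays between 9.27 and 9.47 over the same arrays, and Mfge8 climbs with the endothelial markers from 8.13 to 8.41.

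The genes whose levels resembled these receptors most over the 8 arrays were ranked among 10396 genes above the median level. For Axl they were Cd5l, a secreted protein of tissue macrophages that is itself in the Kupffer cell list (r = 0.99), the kinase gene Dmpk (r = 0.98) and the transporter gene Abcc3 (r = 0.97). For Mertk they were Ccn6 (r = 0.96), Zmat3 (r = 0.95) and Pitpnc1 (r = 0.94). With 8 arrays and so many genes, the top of any such ranking is high, so these are names of like patterns over 8 arrays and no more.

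Tyro3, the family member best known from neurons, lay somewhat below the median gene level, with 40.8% of all genes at or below its mean. Levels were 3.35, 3.27, 3.49 and 3.66 with rTF and 3.54, 3.15, 2.91 and 3.18 with rCPS1. Replicate 1 of rCPS1 sat among the rTF arrays and the other rCPS1 arrays lay below all of them. The log2 difference was -0.25 ± 0.15 (SE), a fold of 0.84 with a 95% interval of 0.67 to 1.07 (limma adjusted p = 0.98). It was -0.36 without rCPS1 replicate 1 (unadjusted p = 0.031, adjusted p = 0.97 in limma) and -0.15 without rCPS1 replicate 3. All of these levels are below the median gene level of 4.19. The table holds no detection calls, so whether Tyro3 rose above background was not tested.

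**Figure D2:**
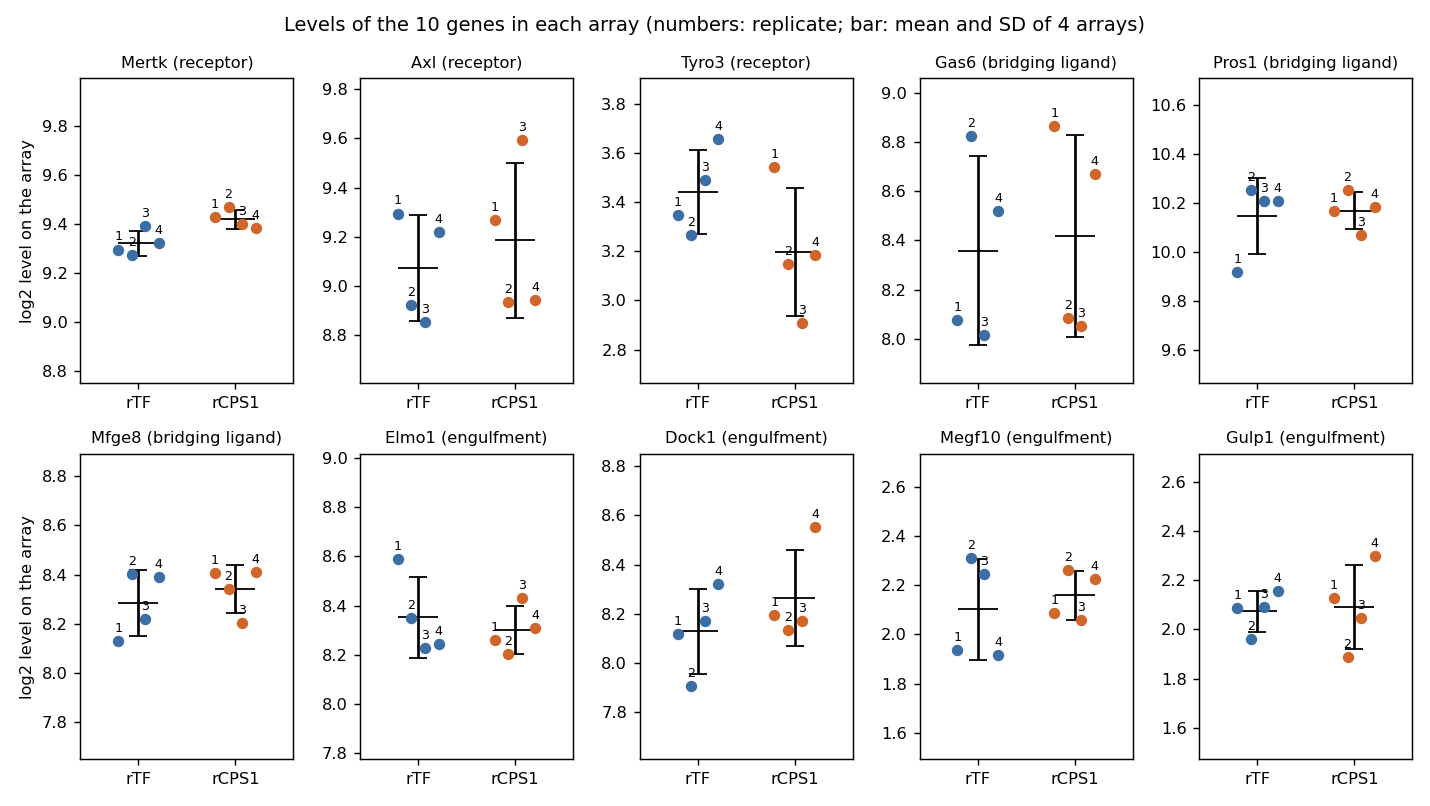
Log2 level of each of the 10 genes in the rTF (blue) and rCPS1 (orange) arrays, with replicate numbers beside the points and the mean and SD of 4 arrays in black; every panel spans the same height on the log2 scale. The groups overlap in every panel, Mertk is tight (9.27 to 9.47), and Gas6 splits into low and high arrays within both groups.

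No bridging ligand passed the test, and Mfge8 shared some of its swings between arrays with Gas6 and with Pros1. The 4 arrays highest in Gas6 (rTF replicates 2 and 4, rCPS1 replicates 1 and 4) were also the 4 highest in Mfge8, and Mfge8 and Pros1 were both lowest in rTF replicate 1. Over the 8 arrays Mfge8 and Pros1 gave Pearson's r = 0.76 but Spearman's coefficient 0.36. Such likeness was not particular to the ligands. Dock1 and Gulp1 gave r = 0.84, and Pros1 and Elmo1 ran opposite to each other (r = -0.90). The stretch just before the start of each ligand gene is shown, 250 bases from the RefSeq promoter table (GRCm38.p6). Each reads 5′ to 3′ on the gene's own strand and lies wholly before the RefSeq gene model, with GC boxes (GGGCGG or its reverse complement, the motif of Sp-family factors) in capitals.
Gas6: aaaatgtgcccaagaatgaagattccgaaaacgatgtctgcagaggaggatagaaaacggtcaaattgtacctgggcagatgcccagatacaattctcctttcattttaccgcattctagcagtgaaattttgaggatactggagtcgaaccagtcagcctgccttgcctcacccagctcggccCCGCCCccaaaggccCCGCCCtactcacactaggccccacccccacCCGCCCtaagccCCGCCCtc
Pros1: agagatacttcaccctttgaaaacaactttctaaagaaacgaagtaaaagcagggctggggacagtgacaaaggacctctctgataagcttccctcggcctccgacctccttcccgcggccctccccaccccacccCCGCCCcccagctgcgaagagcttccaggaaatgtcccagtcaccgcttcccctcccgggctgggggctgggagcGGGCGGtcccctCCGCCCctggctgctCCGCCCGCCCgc
Mfge8: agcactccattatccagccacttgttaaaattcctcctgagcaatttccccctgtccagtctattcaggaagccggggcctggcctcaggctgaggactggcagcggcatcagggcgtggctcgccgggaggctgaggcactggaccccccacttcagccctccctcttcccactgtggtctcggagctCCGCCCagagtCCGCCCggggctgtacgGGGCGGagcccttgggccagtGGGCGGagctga
The Gas6 stretch is chr8:13494536-13494785 (minus strand), that of Pros1 chr16:62854057-62854306 (plus strand) and that of Mfge8 chr7:79149061-79149310 (minus strand). GC boxes were found 4 times before Gas6, 5 times before Pros1, where some overlap, and 4 times before Mfge8, on either strand, and 33% of 32536 such stretches in the table hold at least 1. Stretches were read for 9 of the 10 members, with 1 chromosome left out of the reading and none read for Megf10. Among the members the feature is not particular to the ligands, since 9 of the 10 stretches of those members, the 3 shown included, hold one. Unlike the 3 shown, the stretches of Gulp1, Tyro3 and Axl and 1 of Elmo1 do not lie wholly before the gene model. TATAAA, the TATA box, was found in none of the 3 and in 12.3% of all stretches. GGAAG, the core bound by ETS-family factors, was found 4 times before Pros1, 2 times before Mfge8 and 0 times before Gas6, and in 64.1% of all stretches. These matches are letters in a window and carry no measurement of binding.

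Gas6, the ligand of all TAM receptors, was at 8.08, 8.83, 8.01 and 8.52 with rTF and at 8.86, 8.08, 8.05 and 8.67 with rCPS1. In both groups, arrays near 8.0 stood apart from arrays above 8.5, with none between. The log2 difference was 0.059 ± 0.24 (SE), a fold of 1.04, and its 95% interval, -0.47 to 0.59 on the log2 scale, was the widest of the 10 genes (limma adjusted p = 0.99). It was 0.21 without rTF replicate 2 and -0.090 without rCPS1 replicate 1. Because the arrays fell into separate clusters, with the gap between them larger than any within, no correlation is given for Gas6.

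Pros1, which encodes protein S, a ligand of Mertk and Tyro3 and an anticoagulant, was at 9.92, 10.25, 10.21 and 10.21 with rTF and at 10.17, 10.25, 10.07 and 10.18 with rCPS1. All arrays but rTF replicate 1 lay between 10.07 and 10.25. The log2 difference was 0.022 ± 0.11 (SE), a fold of 1.02 with a 95% interval of 0.85 to 1.21 (limma adjusted p = 0.99). Without rTF replicate 1 it was -0.054.

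Mfge8, the secreted bridge between phosphatidylserine and integrins, was at 8.13, 8.40, 8.22 and 8.39 with rTF and at 8.40, 8.34, 8.20 and 8.41 with rCPS1. Low and high arrays occurred in both groups. The log2 difference was 0.057 ± 0.11 (SE), a fold of 1.04 with a 95% interval of 0.87 to 1.24 (limma adjusted p = 0.98), and without rTF replicate 1 it was 0.0049.

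Mfge8, and less clearly Pros1, tended to be high in the arrays where endothelial markers were high. The mean of the 10 endothelial markers was 11.20, 11.52, 11.35 and 11.43 in rTF replicates 1 to 4 and 11.40, 11.41, 11.29 and 11.47 in rCPS1 replicates 1 to 4. Both genes were lowest in rTF replicate 1 and next lowest in rCPS1 replicate 3. For Mfge8, r was 0.91 (two-sided exact permutation p = 0.00089, adjusted p = 0.040 over the 90 pairs) and Spearman's coefficient 0.81 (exact permutation p = 0.022, adjusted p = 0.52), and r was 0.90 without rTF replicates 1 and 2. For Pros1, r was 0.88 (exact permutation p = 0.0049, adjusted p = 0.15) and Spearman's coefficient 0.71 (exact permutation p = 0.058, adjusted p = 0.52), and r dropped to 0.64 without those arrays, so the relation rests in part on them. These were not the only marker means that ran with the 2 genes, though no further pair passed adjustment. Mfge8 had a higher Spearman's coefficient with B cell markers (0.86, exact permutation p = 0.011, adjusted p = 0.48; r = 0.66, exact permutation p = 0.078) than with endothelial ones. Pros1 had r = -0.72 with Kupffer cell markers (exact permutation p = 0.025, adjusted p = 0.49), or -0.84 without rCPS1 replicates 1 and 3, and r = 0.66 with stellate cell markers (exact permutation p = 0.069, adjusted p = 0.49). With the endothelial mean as a covariate, also chosen after seeing the data, the group difference was 0.040 ± 0.097 (SE) for Mfge8 and 0.0056 ± 0.10 for Pros1. Genes most like Mfge8 over the arrays were Fbxw17 (r = 0.99), Smco4 (r = 0.98) and Stard8 (r = 0.97). Of the 90 pairs of a member and a marker list, 2 passed the adjusted threshold by r, Axl with Kupffer cell markers and Mfge8 with endothelial markers, and by Spearman's coefficient only the first did.

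Elmo1 and Dock1, the partners that activate RAC1, were well above the median gene level, and neither passed the test. Elmo1 was at 8.59, 8.35, 8.23 and 8.24 with rTF and at 8.26, 8.20, 8.43 and 8.31 with rCPS1. Its log2 difference was -0.051 ± 0.12 (SE; 95% interval -0.32 to 0.21; limma adjusted p = 0.99). The highest rTF array, replicate 1, set its sign, since the difference was 0.028 without it. Dock1 was at 8.12, 7.90, 8.17 and 8.32 with rTF and at 8.20, 8.13, 8.17 and 8.55 with rCPS1. Its log2 difference was 0.14 ± 0.14 (95% interval -0.17 to 0.44; limma adjusted p = 0.98). Its lowest array was rTF replicate 2 and its highest rCPS1 replicate 4, and without the latter the difference was 0.038. The remaining arrays of both groups lay within 8.12 to 8.32.

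Megf10, a phagocytic receptor of astrocytes and muscle precursors, and Gulp1, its adapter, were at the bottom of the array's range. Megf10 was at 1.94, 2.31, 2.24 and 1.91 with rTF and at 2.09, 2.26, 2.06 and 2.23 with rCPS1 (difference 0.057 ± 0.13, SE). Gulp1 was at 2.09, 1.96, 2.09 and 2.16 with rTF and at 2.13, 1.89, 2.05 and 2.30 with rCPS1 (0.017 ± 0.12). Of all genes, 16.9% had a mean level at or below that of Megf10 and 15.7% at or below that of Gulp1. As with Tyro3, whether these rows lay above background was not tested, so their differences say little about transcripts.

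**Figure D3:**
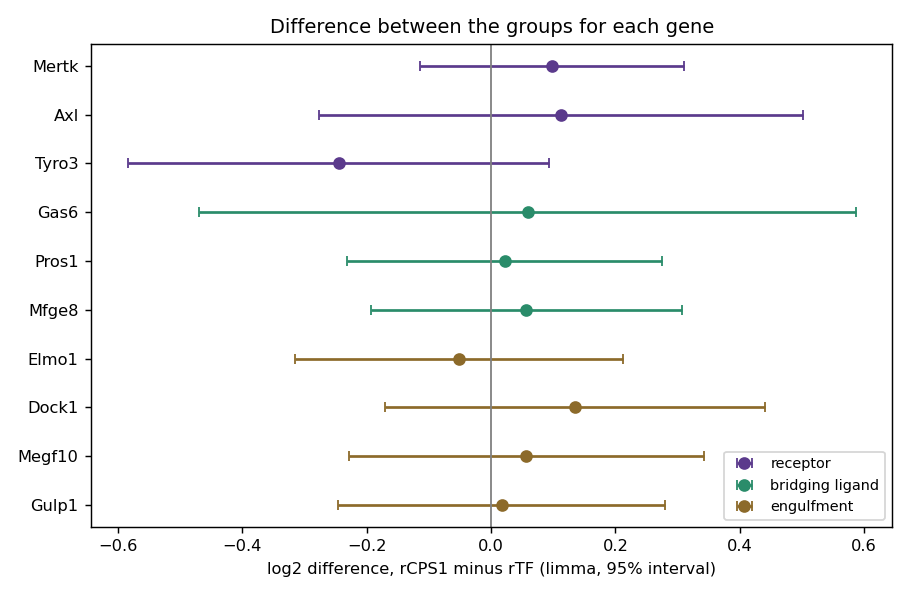
Log2 difference between the groups, rCPS1 minus rTF, for each gene, with the 95% interval from limma, coloured by role. Every interval spans 0; the narrowest is that of Mertk (-0.11 to 0.31) and the widest that of Gas6 (-0.47 to 0.59).

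Other genes of dead-cell uptake were read from 10 lists, of which 118 of 123 different genes were measured. None passed at an adjusted p under 0.05 with limma. At an unadjusted p under 0.05, 9 were lower with rCPS1 (7.63%, against 2.79% of all genes) and 0 were higher (against 1.88% of all genes). The lists were chosen with earlier results of these data known, so these shares are a description and no test of an excess. The 2 genes of smallest unadjusted p are named from each list.

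The list of other bridging proteins held 3 of these 9, not all of them soluble. Thbs1, thrombospondin, which bridges dying cells to CD36 and integrins, was at 9.48, 9.95, 10.90 and 9.94 with rTF and at 8.61, 9.36, 8.93 and 8.62 with rCPS1. Every rCPS1 array lay below every rTF array, as in 1.97% of all genes, and the log2 difference was -1.19 ± 0.28 (SE). Cd14, a lipopolysaccharide co-receptor that also tethers dying cells, differed by -0.38 ± 0.11, likewise without overlap. Anxa1, annexin A1, named after its value was seen, differed by -0.38 ± 0.14. The list's median difference was -0.10, with 7 of 12 genes lower. The complement bridge genes C1qa, C1qb and C1qc of the same list, also named after their values were seen, differed by 0.13 ± 0.22, 0.10 ± 0.19 and 0.21 ± 0.20. Monocyte and neutrophil marker means were lower in the same arrays, as given above, and their part in these values was not tested.

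Receptors for phosphatidylserine outside the TAM family had a median difference of 0.0061, with 8 of 16 lower and 0 at an unadjusted p under 0.05. Cd300lf, an inhibitory myeloid receptor, differed by -0.32 ± 0.15 (SE) and Ager, the receptor for glycation end products, by 0.33 ± 0.16. Ager had a mean level of 3.99, below the median gene level, and whether it rose above background was not tested. Engulfment machinery had 11 of 20 lower and a median of -0.021. Rac2, the GTPase of blood cells, differed by -0.29 ± 0.13 (unadjusted p = 0.049 in limma) and Rhog, which recruits ELMO proteins, by -0.17 ± 0.13. Receptors for signals that dying cells release had 6 of 9 lower. Among them Gpr132, a lipid-sensing receptor, differed by -0.27 ± 0.12 and the nucleotide receptor gene P2ry2 by -0.17 ± 0.16.

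Of the genes of corpse digestion, 6 of 16 were lower, with a median of 0.031 and 0 at an unadjusted p under 0.05. The NADPH oxidase subunit gene Cyba differed by -0.17 ± 0.13 (SE) and the endosome maturation gene Mon1a by -0.19 ± 0.15. Sterol sensors and exporters, which act after a corpse is digested and include nuclear receptors that raise Mertk, had 8 of 10 higher, with a median of 0.031. The fatty acid-sensing receptor gene Pparg differed by 0.35 ± 0.20 and the transporter gene Abca7 by 0.15 ± 0.11, and neither reached an unadjusted p under 0.05. Genes for the shedding of MERTK from the surface spanned only -0.071 to 0.050, from Rhbdf1 (-0.071 ± 0.18), a partner of the protease ADAM17, to Adam17 itself (0.050 ± 0.16).

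Downstream of TAM receptors, which act through the type I interferon receptor, Ifnar1 was at 10.05, 10.18, 9.90 and 9.996 with rTF and at 9.67, 9.71, 9.71 and 9.70 with rCPS1. In the list of TAM feedback and partner genes 5 of 8 were lower, with a median of -0.029. For Ifnar1 the groups did not overlap, and the log2 difference was -0.33 ± 0.10 (SE; limma unadjusted p = 0.0088, adjusted p = 0.98). Twist1, a repressor induced by Axl signals, differed by 0.23 ± 0.13. Its mean level of 3.22 was below the median gene level, and whether it rose above background was not tested. The feedback inhibitor genes Socs1 and Socs3, named after their values were seen, differed by 0.20 ± 0.20 and 0.014 ± 0.20. Another list held the vitamin K cycle, which Gas6 and Pros1 need for carboxylation, and other proteins carboxylated through it. In that list 7 of 14 were lower with a median of -0.00057. The coagulation factor genes F7 (-0.52 ± 0.15, no overlap) and F10 (-0.40 ± 0.17) were the ones with the smallest p. For F10 the difference was -0.26 without rTF replicate 1 and -0.52 without rCPS1 replicate 2. Among signals that hold uptake back, 5 of 8 were lower, Cd24a differed by -0.65 ± 0.29 and the checkpoint ligand gene Cd274 by 0.27 ± 0.17. Cd24a stood at 9.05 in rTF replicate 2 and at 7.68 to 7.91 in the other rTF arrays. Leaving out that replicate gave -0.33 ± 0.17 (SE; limma unadjusted p = 0.079) for Cd24a and 0.12 for Cd274.

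**Figure D4:**
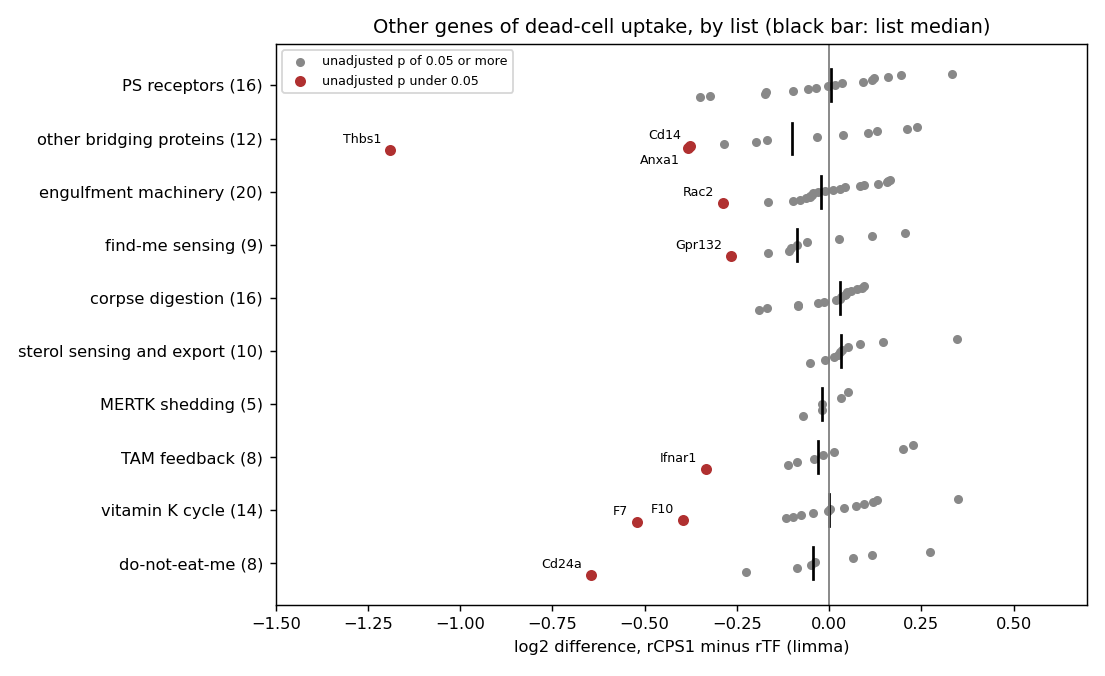
Log2 difference, rCPS1 minus rTF, of each measured gene of the 10 lists, 1 point a gene, with the number of genes in parentheses and the list median as a black bar. The red points, at an unadjusted p under 0.05, all lie to the left of 0, from Thbs1 at -1.19 to Gpr132 at -0.27, and no gene passed after adjustment.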

How the data were processed

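Hepatic macrophage RNA of 8 samples was measured on Affymetrix arrays. Per the labels' protocols, 400 ng of RNA was extracted with Qiagen RNeasy and labelled with the WT Plus kit. The authors deposited log2 expression levels made with RMA, and the submitters' processing notes also name limma; versions, genome build, probe filters and how macrophages were isolated are not given in the sources used here. RMA is meant to set the probe intensities of arrays to a common distribution before they are summarized by row, which hides a shift shared by nearly all genes. The deposited array medians over rows ran from 3.55 to 3.68, so the row values are not on one common distribution. Whether this arose in the summary by row or later was not tested.

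Of 41345 rows, 23521 had 1 gene symbol and gave 22180 genes, taking the row of highest mean per gene. All 10 members matched RefSeq by Entrez ID. The group comparison used limma 3.58.1 under R 4.3.3 (lmFit, eBayes, two-sided, no covariate), with Benjamini-Hochberg adjustment at 0.05. It was also run on simulated data with independent noise and planted differences larger than that of any member. That run does not show how often differences as small as the members' would be found. Intervals are 95% from the same fit. The number of arrays limits the precision.

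The members and lists were chosen with earlier results of these data known. Named genes are the 10 members, 2 of smallest unadjusted p per pathway list, the 2 highest of the highest marker list, and 3 of most similar pattern for Mertk, Axl and Mfge8, leaving out predicted, clone, microRNA, small nucleolar RNA and chemosensory genes. Alternatives were a filter on low genes, trended and robust variance (statmod 1.5.0), array weights, the replicate block, quantile normalization, other rows per gene, all rows and each array left out; 2 covariate fits, and arrays left out for the named pathway genes, were chosen after seeing the data.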

Additional observations from a re-analysis of the deposited data

Results flagged for a closer look

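Dixon's ratio divides the gap between an extreme array and its neighbour by the range of its group of 4. It exceeded its 95% critical value in 5 of 102 sets of 4 values, against 5.1 expected at 1 in 20.

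Pros1 in rTF replicate 1 was at 9.92 against 10.21 to 10.25 in the other rTF arrays (ratio 0.868), and Dock1 in rCPS1 replicate 4 was at 8.55 against 8.13 to 8.20 (0.851). Among other genes, Abca7 in rTF replicate 3 was at 6.42 against 6.65 to 6.69 (0.864), Rhbdf1 in rCPS1 replicate 3 at 5.79 against 6.15 to 6.22 (0.836), and F10 in rCPS1 replicate 2 at 9.84 against 9.29 to 9.38 (0.830).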

How the results depend on the processing

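Under 18 alternative settings, 0 members passed the adjusted threshold (smallest adjusted p 0.90), and 0 genes of the whole table did. Of 177 member values, 164 kept the sign and 13 turned, 11 of them with 1 array left out. With array weights Gulp1 differed by -0.012, and with the Kupffer cell marker mean as a covariate Axl by -0.012. With each array left out in turn, the difference ran from -0.024 to 0.20 for Axl, -0.090 to 0.21 for Gas6, -0.054 to 0.056 for Pros1, -0.094 to 0.028 for Elmo1, -0.0053 to 0.13 for Megf10 and -0.052 to 0.084 for Gulp1. Those of Mertk, Tyro3, Mfge8 and Dock1 kept their sign in every setting run. The count of members whose groups do not overlap ran from 0 to 1, being Mertk without rTF replicate 3 or rCPS1 replicate 4 and Tyro3, lower, without rCPS1 replicate 1. The filter on low genes left out Tyro3, Megf10 and Gulp1. In the paired fit with the replicate block, Mertk differed by 0.098 (limma adjusted p = 0.99) and 0 genes passed. Deviations of same-numbered arrays correlated at -0.12 to 0.025 over genes. No pairing by number was seen, but these values cannot show that there was none.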
